A study of Macaca fascicularis with 36 samples.

Results

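Of 28623 genes counted in frontal cortex RNA from Macaca fascicularis, the cynomolgus monkey, 8 rows carry identifiers from the very start of the Ensembl numbering: ENSMFAG00000000002, ENSMFAG00000000004, ENSMFAG00000000005, ENSMFAG00000000006, ENSMFAG00000000014, ENSMFAG00000000022, ENSMFAG00000000023 and ENSMFAG00000000024. They were chosen by identifier, and no rule on their values was applied here, but the 16 other low identifiers described below have next to no counts. The files pair no identifier with a gene name, so what these rows are is an inference from identifier order and exonic width. ENSMFAG00000000002 is 948 bases wide and ENSMFAG00000000004 is 1560 bases wide, which fit the 12S and 16S ribosomal RNAs of the mitochondrion, and the other 6 are 64 to 75 bases wide, which fits mitochondrial transfer RNAs. No single transfer RNA is named here, and chromosome positions and sequences of these rows were not used.

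The mitochondrial genome is a small circle that encodes its own ribosomal RNAs, its own transfer RNAs and a few subunits of the respiratory chain. Both strands are copied into long transcripts that are trimmed into single RNAs, often at the transfer RNAs that lie between the longer genes. The 12S and 16S RNAs form the core of the small and large subunit of the mitochondrial ribosome, and the transfer RNAs bring amino acids to it. Brain cortex, with its high demand for oxygen, is rich in these transcripts. Mature transfer RNAs are short, folded and modified, and ordinary RNA libraries capture them poorly.

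Each library was made from bulk total RNA of the frontal cortex of 1 animal. The 12 animals formed 3 groups of 4, all given antibody by intrathecal injection and sampled 2 days later: anti-gD, an isotype control, at 200 mg/kg (animals 1501 to 1504), Para09, an antibody that activates human TREM2, at 50 mg/kg (animals 4501 to 4504), and Para09 at 200 mg/kg (animals 5501 to 5504). TREM2 is a receptor of microglia, the immune cells of the brain. Each animal gave 3 libraries, marked A, B or C (the labels do not explain the letters), so the 12 libraries of a group are not 12 animals. The labels also do not say whether an animal's libraries come from separate pieces of tissue, so the spread between them may be technical. The sample numbers in the titles, which begin with SAM, fall into a pair of separate ranges, called the first and the second run below. Nothing in the labels says that these runs are sequencing runs. The first run holds 16 libraries (letter B of all 12 animals, and letters A and C of animals 1504 and 5501). The second run holds the other 20 libraries (letters A and C of the remaining 10 animals). Run and letter are therefore almost the same split: only animals 1504 and 5501 separate them.

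The libraries held 15.07 M to 36.97 M counts (M being 1000000), on average 20.1 M (SD 3.03, n = 16) in the first run and 23.4 M (SD 3.87, n = 20) in the second. Genes with a count numbered 15779 in library 5501B, the lowest of all, against a median of 18740 over the 36 libraries. Values below are CPM, the counts of a gene for each 1000000 counts of the library, unless another scale is named. Because the tissue is bulk, fewer cells of a type and less RNA per cell cannot be told apart. The lists of cell type markers could not be applied to identifiers without names, so the labelled tissue was not checked against its markers.

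All 24 identifiers from 1 to 24 are in the tables, and their widths match a mitochondrial set of ribosomal and transfer RNA genes: 22 of them are short, at 59 to 75 bases, beside the 948- and 1560-base rows. The 6 short rows described here are those with appreciable counts. Of the 16 remaining short rows, 5 had no count in any library, the highest had 33 counts over all 36 libraries together, and all 16 summed to 86 counts. A further 13 consecutive identifiers, ENSMFAG00000046415 to ENSMFAG00000046427, fit the mitochondrial protein genes in number and width. This is again an inference, these rows were singled out after their values were seen, and they serve below as a comparison for the 8 rows.

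The 2 long rows were among the abundant transcripts of the cortex. Over the 36 libraries ENSMFAG00000000002 had a mean of 1648 CPM (SD 444) and ENSMFAG00000000004 a mean of 2085 CPM (SD 623), which ranked 36 and 24 by CPM among all genes. Per kilobase of width the order of the pair turned: the 12S-like row stood at 1738 CPM per kilobase, rank 15, and the 16S-like row at 1336, rank 18. Together they took a median of 0.358% of a library's counts, from 0.203% to 0.628%. The 13 protein-like rows took far more, a median of 6.75% (3.82% to 10.9%), so that each library held 12.4 to 25.1 protein-like counts for each count of the 2 ribosomal RNA-like rows.

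The 6 short rows were all low but one. ENSMFAG00000000022, 69 bases wide, averaged 15.1 CPM over the 36 libraries and 218 CPM per kilobase, rank 149 among all genes. The others averaged 0.300 CPM (ENSMFAG00000000005), 0.530 CPM (ENSMFAG00000000006), 0.249 CPM (ENSMFAG00000000014), 0.408 CPM (ENSMFAG00000000023) and 0.189 CPM (ENSMFAG00000000024), or 2.75 to 7.79 CPM per kilobase. At these levels counting error dominates single libraries: ENSMFAG00000000005 had 10 or fewer counts in 30 of 36 libraries, ENSMFAG00000000024 likewise in 30, ENSMFAG00000000014 in 28, ENSMFAG00000000023 in 25 and ENSMFAG00000000006 in 15.

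The 12S-like row, ENSMFAG00000000002, overlapped between the treatment groups. Summed over each animal's 3 libraries, the 4 anti-gD animals had 1128, 1814, 1755 and 1132 CPM (animals 1501 to 1504 in order), a mean of 1457 (SD 378). The 4 animals at 50 mg/kg had 2153, 1485, 1868 and 1755 CPM (4501 to 4504), a mean of 1815 (SD 277). The 4 animals at 200 mg/kg had 1566, 1900, 1581 and 1363 CPM (5501 to 5504), a mean of 1603 (SD 222). Animals 1501 and 1504 were the lowest of the 12 and animal 4501 the highest, and every pair of groups overlapped. In edgeR's quasi-likelihood test on the animal sums the log2 fold change was 0.33 (SE 0.19, Benjamini-Hochberg adjusted p = 0.882) at 50 mg/kg against anti-gD, 0.14 (SE 0.19, adjusted p = 1.00) at 200 mg/kg against anti-gD, and -0.19 (SE 0.19, adjusted p = 0.961) at 200 against 50 mg/kg.

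The 16S-like row, ENSMFAG00000000004, was spread in the same way. The anti-gD animals had 1500, 2336, 2079 and 1642 CPM, a mean of 1889 (SD 387). The animals at 50 mg/kg had 2808, 1725, 2050 and 2153 CPM, a mean of 2184 (SD 454), and those at 200 mg/kg had 2373, 2290, 2021 and 1595 CPM, a mean of 2070 (SD 351). Again all groups overlapped, animal 4501 was the highest, and animals 1501 and 5504 were the lowest. The log2 fold changes, by edgeR's quasi-likelihood test, were 0.22 (SE 0.19, adjusted p = 0.902) at 50 mg/kg, 0.13 (SE 0.19, adjusted p = 1.00) at 200 mg/kg and -0.09 (SE 0.19, adjusted p = 0.965) between the doses.

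**Figure D1:**
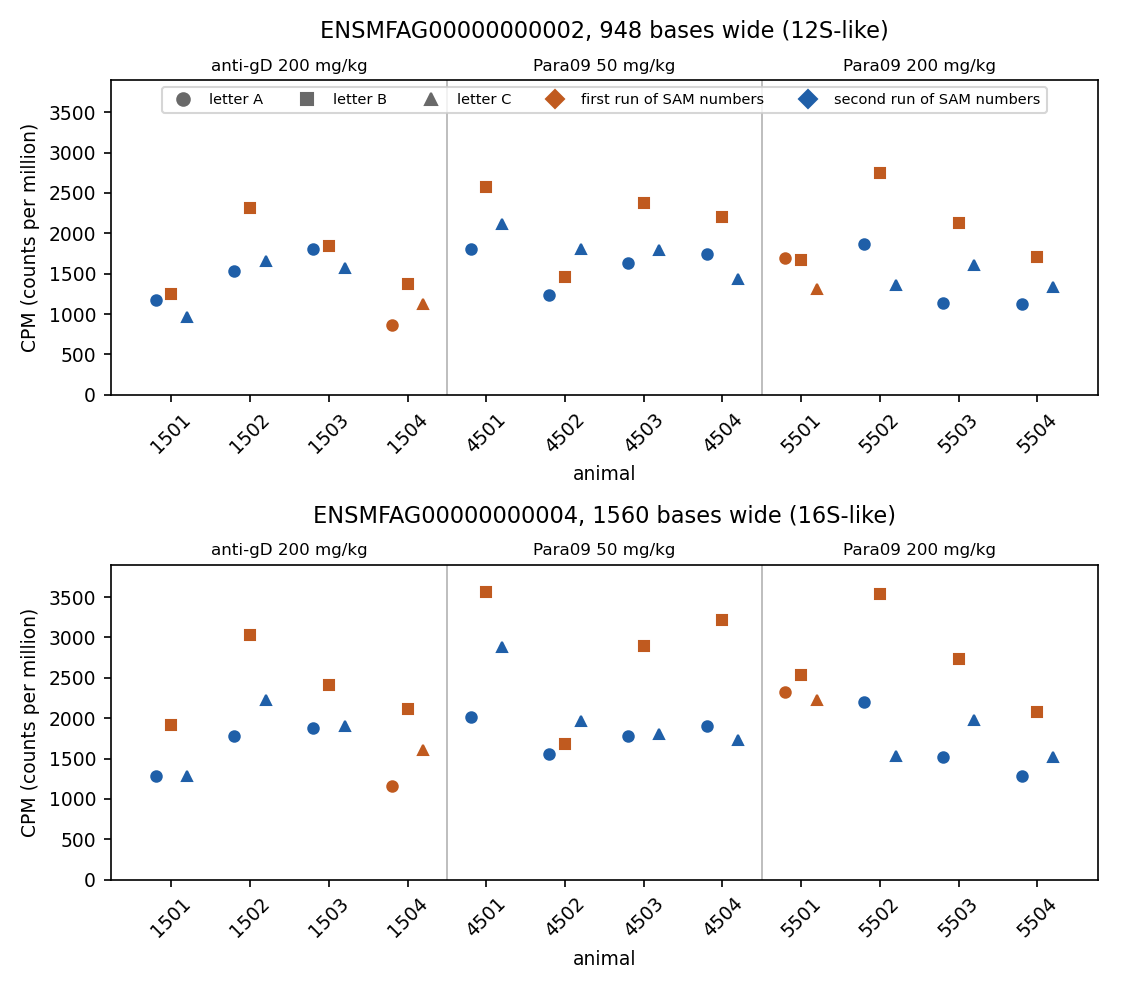
CPM of the 948-base row (top) and the 1560-base row (bottom) in each of the 36 libraries, by animal along the x axis and by treatment group between the grey lines. Each symbol is 1 library: circles, squares and triangles are letters A, B and C, orange is the first and blue the second run of sample numbers. The B library is the highest of its animal in 10 of 12 animals for the upper row and in 11 of 12 for the lower one, while the groups overlap.

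None of the 8 rows was called between treatment groups. At a Benjamini-Hochberg adjusted p under 0.05, edgeR's quasi-likelihood test called 0 of the 8 in each of the 3 comparisons, where it called 0 of 17360 genes (0% of the background). At an unadjusted p under 0.05 it had 691, 996 and 441 genes for 200 mg/kg against anti-gD, 50 mg/kg against anti-gD and 200 against 50 mg/kg, and none of the 8 rows was among them. DESeq2 called 14 of 19312, 6 of 21171 and 0 of 23960 genes in the same comparisons, again with 0 of the 8. With so few genes called, 0 of 8 says little about these rows. The median log2 fold change of the 8 rows was 0.31, 0.40 and -0.23 in these comparisons, against 0.00, 0.00 and 0.01 over all genes. The medians of the 8 rows depend on the runs and on single animals, and they moved both ways. Within the second run they were 0.06, 0.19 and -0.10. Without animal 1504 the comparisons with anti-gD gave 0.12 and 0.27, and without animal 1501 0.18 and 0.25. Without animal 1502 they rose to 0.48 and 0.55, and without animal 1503 to 0.46 and 0.50. The lowest unadjusted p of the 24 tests was that of ENSMFAG00000000024 at 50 mg/kg against anti-gD, with a log2 fold change of 1.78 (SE 0.89, edgeR's unadjusted p = 0.0684, adjusted p = 0.867). The comparisons with anti-gD share its 4 animals, so their values are not independent of each other.

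The runs were unevenly spread over the groups, since all libraries of animals 1504 (anti-gD) and 5501 (200 mg/kg) lie in the first run, and this bears on the short rows most. Summed per animal, ENSMFAG00000000022 had 10.3, 20.2, 17.6 and 0.110 CPM in the anti-gD animals. It had 18.2, 18.1, 25.03 and 18.4 CPM in the animals at 50 mg/kg, and 0.126, 22.9, 18.8 and 22.5 CPM in those at 200 mg/kg. The values near 0 are those of animals 1504 and 5501, the only ones without a library in the second run. Within the second run alone, ENSMFAG00000000022 averaged 24 CPM (SD 7.30, n = 3 animals) under anti-gD, 27.4 (SD 3.80, n = 4) at 50 mg/kg and 29.5 (SD 2.83, n = 3) at 200 mg/kg. The log2 fold change at 200 mg/kg against anti-gD was 0.41 (SE 1.06, adjusted p = 1.00, edgeR) over all libraries. Within the second run it was 0.27, again with 0 of the 8 rows called.

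The same split within runs turned the small differences of the long rows. At 200 mg/kg against anti-gD the log2 fold change of ENSMFAG00000000002 was 0.29 within the first run (letter B alone) and -0.08 within the second run. That of ENSMFAG00000000004 was 0.21 and -0.09. At 50 mg/kg both stayed positive, at 0.38 and 0.21 for the 12S-like row and at 0.30 and 0.17 for the 16S-like row. With letter B alone, the 12S-like row averaged 1694 CPM (SD 485) under anti-gD, 2151 (SD 487) at 50 mg/kg and 2062 (SD 503) at 200 mg/kg, each over 4 animals. None of these within-run differences was called by edgeR's quasi-likelihood test. Animals 1504 and 5501 have no library in the second run, so the fits within the runs also differ in the animals compared.

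The clear contrast among the 8 rows was between the runs of sample numbers, and it involved 3 of the 6 short rows. ENSMFAG00000000022 had 0 to 7 counts in the 16 libraries of the first run, with a median of 3.5, and 358 to 1052 counts in the 20 libraries of the second, with a median of 618. On the CPM scale these ranges are 0 to 0.424 (median 0.169) and 14.3 to 39.4 (median 28.6). The runs did not overlap: the lowest library of the second run, 1501A, stood far above the highest of the first. Pooled over the libraries of a run, the row rose from 0.174 to 26.9 CPM, a fold of 154 (95% exact conditional interval 118 to 204, which covers counting error only). On the deposited RPKM scale the mean was 1.46 in the first and 233 in the second run.

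ENSMFAG00000000014, 72 bases wide, was not detected in the first run: 0 counts in all 16 libraries, where 3 counts over the run would be 0.00935 CPM. All 20 libraries of the second run had it, with 2 to 21 counts (median 9) and 0.455 CPM when pooled. That is 48.7-fold higher when the first run is set to a floor of 3 counts. The lower limit of the 95% exact interval was 39.3-fold (counting error only). ENSMFAG00000000024, 69 bases wide, had 3 counts in the first run, in libraries 1502B, 5501C and 5503B with 1 each, and 159 in the second run, with 0 to 23 per library. The pooled fold was 36.3 (95% exact interval 12.2 to 178, counting error only). The second-run library without a count was 1501A, and 5503A had 1 count, so for this row the runs overlapped at 0 to 1 counts.

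Of 17974 genes with a pooled CPM of at least 0.1 in either run, 226 were at least 20-fold higher in the second run, which is 1.26%, and the 3 short rows were among them. ENSMFAG00000000014 and ENSMFAG00000000024 reached the minimum of 0.1 CPM only in the second run, where they are high, so the share is no support for their difference. Among the other 504 rows of 64 to 75 bases, 191 had a count in some library, 14 reached the pooled CPM of 0.1, and 0 of those 14 differed 10-fold or more between the runs in either direction.

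The other 3 short rows differed far less between the runs. ENSMFAG00000000005 had 1 to 16 counts per library in the first run and 1 to 21 in the second, a pooled 0.252 and 0.323 CPM, with a fold of 1.28 whose 95% exact interval of 0.970 to 1.70 includes 1. Within animals it was higher in the second run in 3 of 10, with a median log2 difference of -0.67, so its pooled fold and its within-animal difference point in opposite directions. ENSMFAG00000000006, higher in 4 of 10 animals, had 5 to 19 and 1 to 25 counts, a pooled 0.542 and 0.502 CPM and a fold of 0.926 (0.758 to 1.13). ENSMFAG00000000023, higher in 7 of 10 animals, had 0 to 36 and 4 to 19 counts, a pooled 0.408 and 0.410 CPM and a fold of 1.01 (0.801 to 1.26). The 36 counts of ENSMFAG00000000023, the most in any library, were in 5501B, the library with the fewest detected genes.

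**Figure D2:**
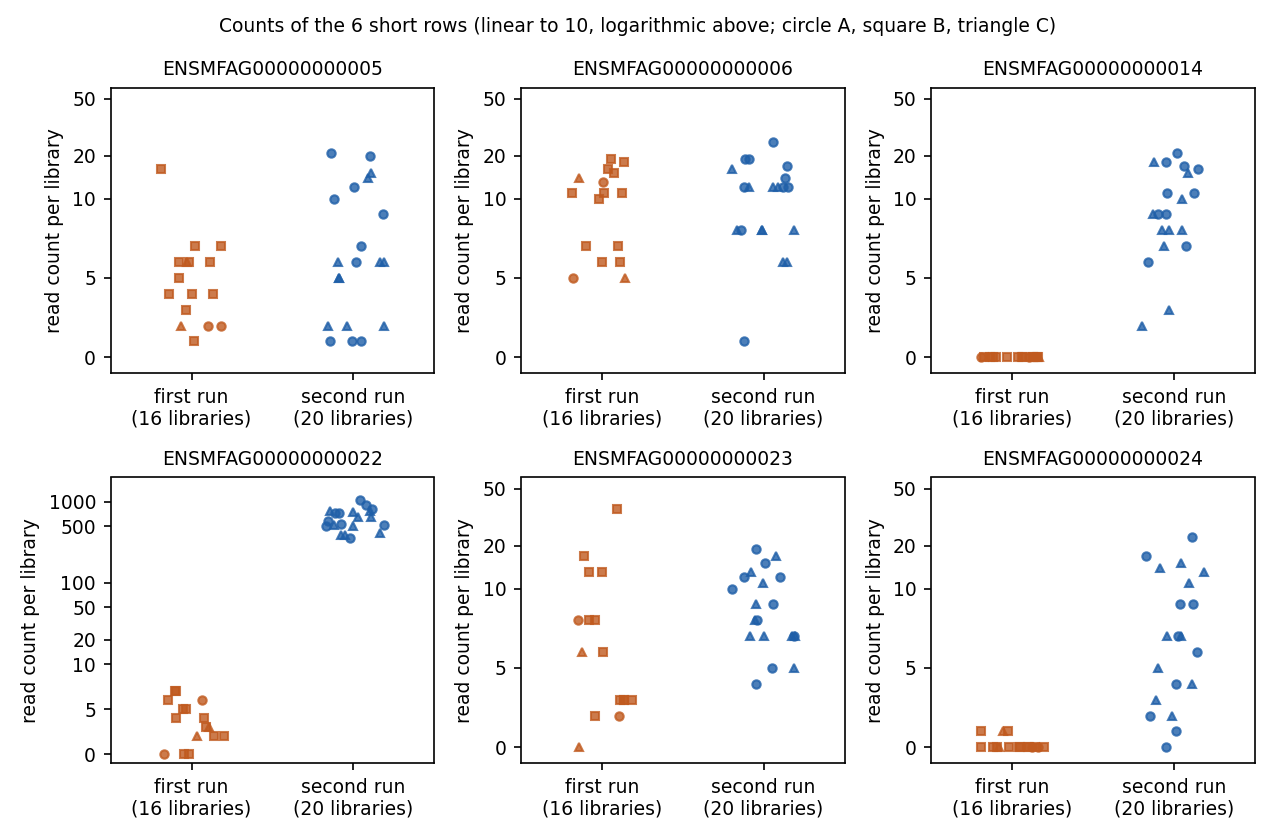
Read counts of the 6 short rows in each library, with the first run (16 libraries, orange) on the left and the second run (20 libraries, blue) on the right of each panel. Symbols are letters A (circle), B (square) and C (triangle). The y axis is linear up to 10 and logarithmic above, with its own upper limit for ENSMFAG00000000022. That row goes from 0 to 7 counts in the first run to 358 to 1052 in the second, ENSMFAG00000000014 is at 0 in the whole first run, and the rows ending in 05, 06 and 23 overlap.

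Letter and run could be compared only through animals 1504 and 5501, which have letters A and C in the first run. In those 4 libraries ENSMFAG00000000022 had 0 counts (1504A), 3 (1504C), 6 (5501A) and 2 (5501C), like the B libraries of the first run and unlike the 20 A and C libraries of the second. ENSMFAG00000000014 had 0 counts in all 4, and ENSMFAG00000000024 had 1 count, in 5501C. Thus the low counts of ENSMFAG00000000022 and ENSMFAG00000000014 went with the run in each of these 4 libraries, not with the letter. Animals 1504 and 5501 have no library in the second run, so run and animal cannot be told apart in these 4 libraries. For ENSMFAG00000000024 the 4 libraries do not separate the runs, since second-run libraries 1501A and 5503A had 0 and 1 counts. Neither the labels nor the headers say whether counting used strand, or whether the library kit or its strand marking was the same in both runs. Reads of a row and of a gene on the opposite strand may therefore be mixed, in one run or in both, so the folds between runs compare counts and need not compare RNA levels. This was not tested.

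A library-level model (limma voom with group, run and letter as terms and the animal as a random block) tested 5 of the 8 rows, since ENSMFAG00000000005, ENSMFAG00000000014 and ENSMFAG00000000024 did not pass its low-count filter. It called 2 of the 5 higher in the second run, against 2489 of 15928 genes (15.6%), and 0 of the 5 lower, against 2010 genes (12.6%). These background counts depend on the model and on 1 animal. Without animal 1504 the model called 204 genes higher and 178 lower of 16093, with 1 of the 5 rows higher. With RLE size factors it called 2615 higher and 1266 lower, with the same 2 of 5 higher. Without the letter term it called 4429 higher and 6187 lower, with 1 of the 5 rows higher and 2 lower, the 2 long rows. ENSMFAG00000000022 had a log2 difference of 7.37 (SE 1.04, limma adjusted p = 3.08e-06) and was higher in the second run in 10 of 10 animals. ENSMFAG00000000023 had 1.80 (SE 0.67, limma adjusted p = 0.0419), was higher in 7 of 10 animals, and lost its call without library 5501B (log2 difference 1.48, adjusted p = 0.0658) and when animal 1502, 1503, 1504, 4501, 4502, 4503, 4504 or 5502 was left out (1.21 to 1.84, adjusted p 0.0509 to 0.472). Its pooled CPM was nearly equal in the runs, as given above, and its difference without the letter term was 0.33 (limma adjusted p = 0.345). In this model the run is judged largely on the 4 A and C libraries of animals 1504 and 5501, and those held 2, 0, 8 and 6 counts of ENSMFAG00000000023.

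The long rows went the other way, and by far less. ENSMFAG00000000004 ranged from 1158 to 3566 CPM in the first run (median 2366) and from 1283 to 2885 in the second (median 1792), and ENSMFAG00000000002 from 867 to 2749 (median 1700) and from 959 to 2110 (median 1588). The runs overlapped for both. Library 1504A, of the first run, was the lowest of all for both rows. Within animals, both rows were lower in the A and C libraries of the second run than in the B library of the first in 9 of 10 animals, animal 4502 being the exception. The median log2 difference over the 10 animals was -0.46 for ENSMFAG00000000002, from -0.77 to 0.04, and -0.58 for ENSMFAG00000000004, from -0.92 to 0.06.

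With the animal as a fixed block, edgeR's quasi-likelihood test on these 10 animals gave a log2 difference of -0.41 (SE 0.08, adjusted p = 0.000837) for the 12S-like row and -0.58 (SE 0.09, adjusted p = 8.04e-05) for the 16S-like row. It called both lower, where it called 5336 of 16032 genes (33.3%) lower and 4381 (27.3%) higher. In these 10 animals run and letter B cannot be told apart. In the voom model with a letter term, where the 4 A and C libraries of the first run enter, the differences were 0.12 (SE 0.19, limma adjusted p = 0.644) and -0.10 (SE 0.18, adjusted p = 0.684), beside a median of -0.11 over all genes. Those 4 libraries averaged 1252 CPM (SD 350) for the 12S-like row and 1827 CPM (SD 549) for the 16S-like row, against 1969 (SD 491) and 2644 (SD 628) in the 12 B libraries and 1534 (SD 304) and 1801 (SD 380) in the 20 libraries of the second run. On average these 4 libraries thus lay no higher than the second run for the 12S-like row and near it for the 16S-like row. For ENSMFAG00000000022 they lay with the first run. They come from 2 animals, which differed for the 16S-like row. It stood at 1158 CPM in 1504A and 1603 CPM in 1504C, but at 2324 CPM in 5501A and 2224 CPM in 5501C. In animal 5501 the 12S-like row was as high in A (1700 CPM) as in B (1673 CPM).

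The 13 protein-like rows held the same kinds of pattern. ENSMFAG00000046426, 528 bases wide, rose from a pooled 153 CPM in the first run to 4124 CPM in the second, a fold of 26.9, and ENSMFAG00000046419, 207 bases wide, from 9.48 to 18.1 CPM, a fold of 1.91. The other 11 had folds of 0.790 to 0.954, beside 0.878 for ENSMFAG00000000002 and 0.748 for ENSMFAG00000000004. The voom model called 2 of the 13 higher (15.6% of all genes were called higher) and 0 lower (12.6%), and without animal 1504 it called 1 higher. The fit with the animal as a block called 2 higher (27.3% of all genes) and 8 lower (33.3%).

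**Figure D3:**
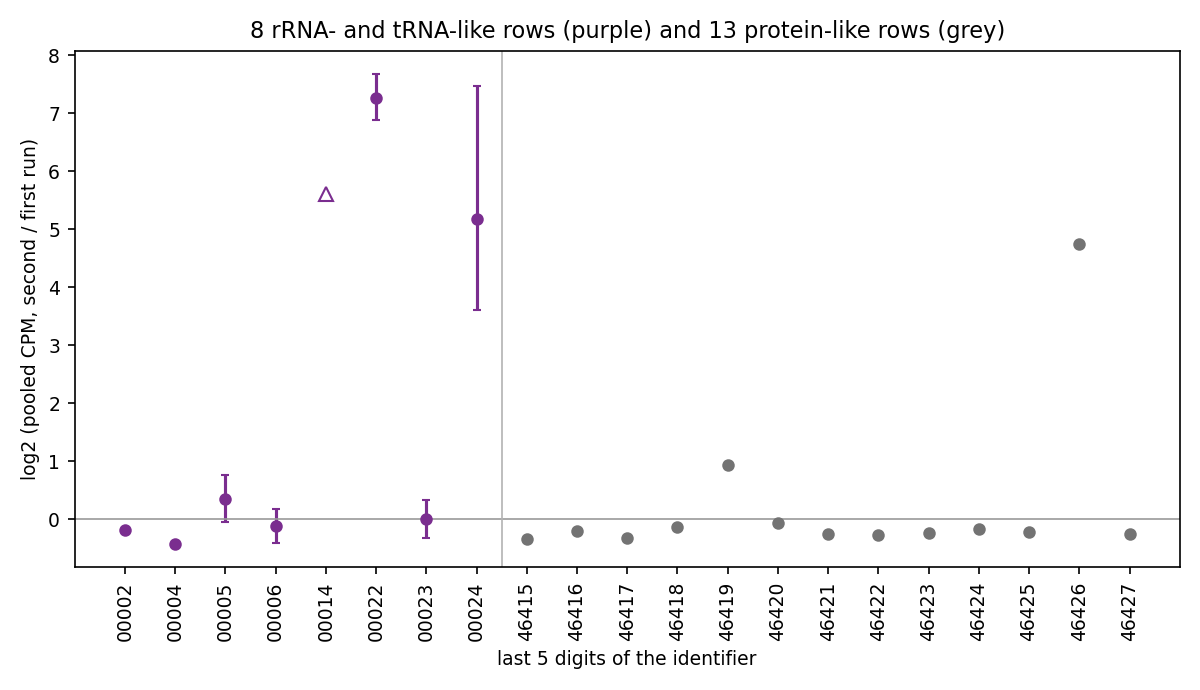
Log2 of the pooled CPM of the second run over that of the first, for the 8 rows (purple) and the 13 protein-like rows (grey), labelled by the last 5 digits of their identifiers. Bars are 95% exact conditional intervals, which cover counting error only and are drawn for every row with a count in the first run. The open triangle is ENSMFAG00000000014, which had no count there, with the first run set to a floor of 3 counts. The short rows ending in 014, 022 and 024 and the protein-like row ENSMFAG00000046426 stand far above 0, and most others lie slightly below it.

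ENSMFAG00000000022 followed the protein-like row ENSMFAG00000046426 closely within the second run. There it had a pooled 6.51 counts for each 1000 counts of that row, with single libraries between 5.42 and 7.55 and a median of 6.58. In the first run the pooled ratio was 1.14 per 1000, so the short row differed more between the runs than the longer one. Across the 20 libraries of the second run the log2 CPM values of the pair had a Pearson r of 0.928, against 0.469 for ENSMFAG00000000022 with ENSMFAG00000000004 and 0.601 with ENSMFAG00000000002. In the 16 libraries of the first run, where the short row had at most 7 counts, r with ENSMFAG00000046426 was 0.423. Over all 36 libraries ENSMFAG00000046426 was also the gene with the highest r (0.991) with the sum of the 6 short rows, among genes of at least 10 CPM. That sum is mostly ENSMFAG00000000022, so the pair was singled out in these same libraries. No other protein-like row was compared with ENSMFAG00000000022 within a run. These values describe libraries that share animals and library totals, and they carry no test.

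**Figure D4:**
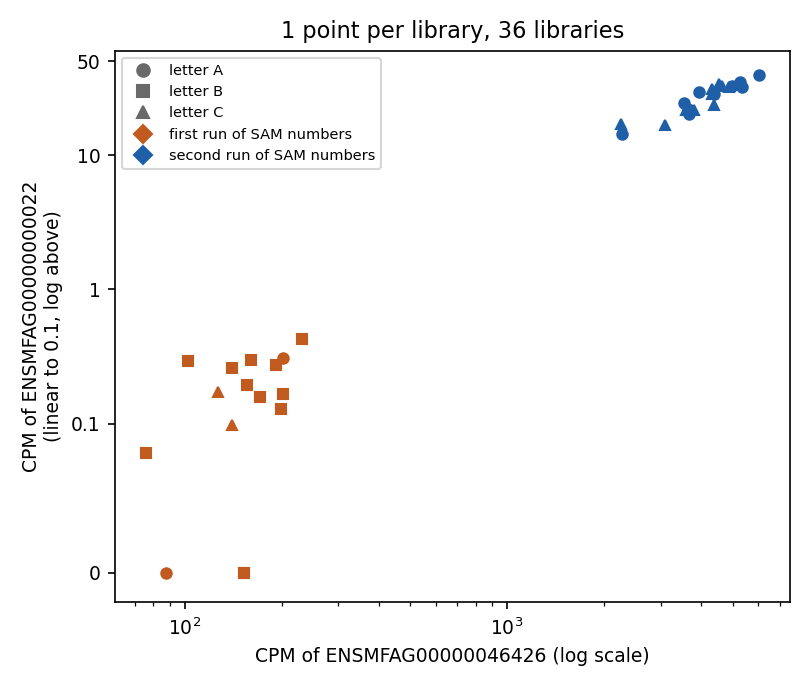
CPM of ENSMFAG00000000022 (y axis, linear to 0.1 and logarithmic above) against CPM of the 528-base row ENSMFAG00000046426 (x axis, logarithmic), 1 point for each of the 36 libraries. Orange is the first and blue the second run, and circles, squares and triangles are letters A, B and C. The 20 libraries of the second run form a narrow band between 14.3 and 39.4 CPM of the short row, and the 16 of the first run lie apart at 0 to 0.424 CPM.

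Relative to the 16S-like row, the order of the short rows differed between the runs. For each 100000 counts of ENSMFAG00000000004, the first run held 22.6 counts of ENSMFAG00000000006, 17.0 of ENSMFAG00000000023, 10.5 of ENSMFAG00000000005, 7.28 of ENSMFAG00000000022, 0.390 of ENSMFAG00000000024 and 0 of ENSMFAG00000000014. The second run held 1497 of ENSMFAG00000000022, 28.0 of ENSMFAG00000000006, 25.4 of ENSMFAG00000000014, 22.9 of ENSMFAG00000000023, 18.9 of ENSMFAG00000000024 and 17.99 of ENSMFAG00000000005. ENSMFAG00000000022 thus passed from the fourth place to the first, while the other 5 ranged from 17.99 to 28.0 in the second run. For each 100 counts of ENSMFAG00000000022 the second run held 1.69 of ENSMFAG00000000014 and 1.26 of ENSMFAG00000000024.

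The ratio of the long rows was much steadier than either level. Counts of the 16S-like row, ENSMFAG00000000004, divided by those of the 12S-like row, ENSMFAG00000000002, ranged from 1.01 (4503C) to 1.70 (5501C), with a median of 1.25 over the 36 libraries, while the levels varied 3.17-fold (ENSMFAG00000000002) and 3.08-fold (ENSMFAG00000000004) from the lowest to the highest library. The log2 CPM values of the pair had a Pearson r of 0.949 over the 16 libraries of the first run and 0.906 over the 20 of the second, a description over libraries that share animals. Both rows are wide enough that counting error is negligible, with at least 18924 and 25261 counts in every library.

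By treatment the ratio did not differ beyond the spread between animals. The mean log2 ratio was 0.389 (SD 0.121, n = 4) under anti-gD, 0.257 (SD 0.107, n = 4) at 50 mg/kg and 0.363 (SD 0.167, n = 4) at 200 mg/kg. The differences were -0.13 at 50 mg/kg against anti-gD (SE 0.08, exact two-sided permutation p = 0.171, Benjamini-Hochberg adjusted p = 0.286 over the 5 comparisons of this ratio), -0.03 at 200 mg/kg (SE 0.10, exact p = 0.800, adjusted p = 0.800) and 0.11 between the doses (SE 0.10, exact p = 0.40, adjusted p = 0.50). With 4 animals against 4 the smallest possible p is 0.0286. The difference at 50 mg/kg against anti-gD was -0.06 within the second run, -0.13 with letter B alone and -0.08 without animal 1504, whose libraries all lie in the first run.

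Between the runs the ratio fell. The 16 libraries of the first run had ratios of 1.15 to 1.70 (median 1.35) and the 20 of the second 1.01 to 1.37 (median 1.15), so the ranges overlapped. Within animals the mean ratio of A and C in the second run was below that of B in the first in 9 of 10 animals, with animal 4502 the exception, and the mean log2 difference was -0.16 (SE 0.04, a fold of 0.894, exact sign-flip p = 0.00586, adjusted p = 0.0293, two-sided, 10 animals). With letter A alone in the second run the difference was -0.19 (exact p = 0.0176, adjusted p = 0.0879), and with letter C alone -0.13 (adjusted p = 0.0293). Leaving out animal 1501, 1502, 1503, 4501, 4503, 4504, 5502 or 5504 kept the direction (-0.17 to -0.14) but moved the adjusted p to 0.0586 each time. Letter B and the first run coincide in this comparison. The 4 A and C libraries of the first run had ratios of 1.33 (1504A), 1.42 (1504C), 1.37 (5501A) and 1.70 (5501C), which average 1.45 (SD 0.16), beside 1.35 (SD 0.13) in the 12 B libraries and 1.18 (SD 0.11) in the second run. Those 4 libraries come from animals 1504 and 5501, whose summed counts gave the 2 highest ratios of the 12 animals (1.45 and 1.515). Beside their own B libraries, at 1.53 (1504) and 1.52 (5501), 3 of the 4 lay lower and 5501C lay higher. For this ratio, run and letter B cannot be told apart.

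**Figure D5:**
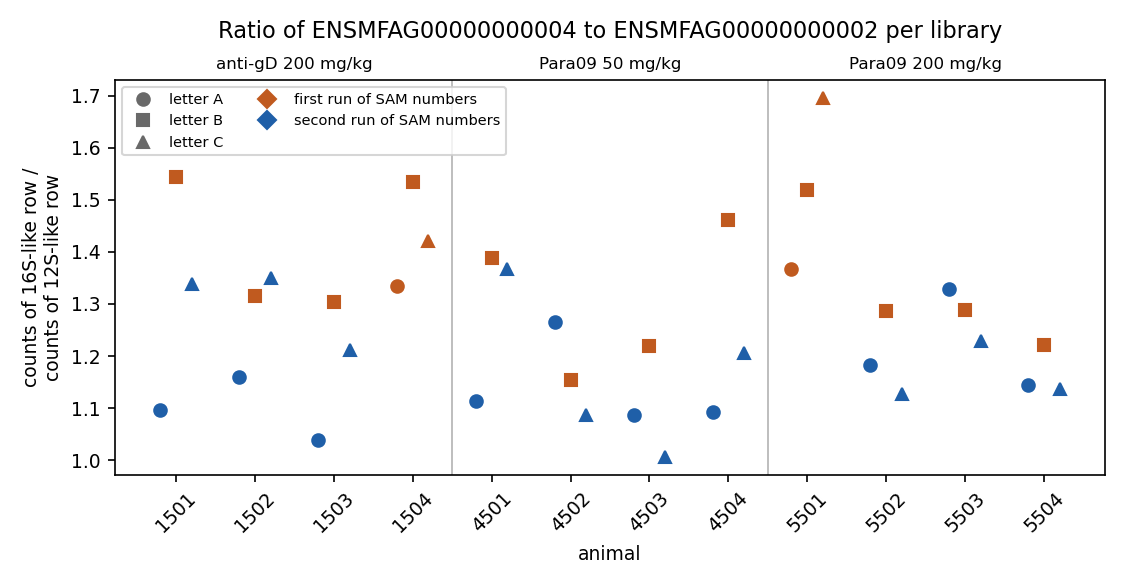
Ratio of the counts of ENSMFAG00000000004 to those of ENSMFAG00000000002 in each of the 36 libraries, by animal along the x axis and treatment group between the grey lines. The y axis does not start at 0. Orange is the first and blue the second run, and circles, squares and triangles are letters A, B and C. Ratios run from 1.01 to 1.70, the groups overlap, and the libraries of the first run tend to lie above those of the second within an animal.

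Letters A and C, which share a run in every animal, hardly differed for these rows. The voom model called 0 of the 5 tested rows between C and A, and 0 of 15928 genes (0%), with 1353 genes at an unadjusted p under 0.05. The log2 differences were 0.03 (SE 0.11, limma adjusted p = 0.922) for ENSMFAG00000000002, 0.12 (SE 0.11, adjusted p = 0.657) for ENSMFAG00000000004 and -0.08 (SE 0.15, adjusted p = 0.840) for ENSMFAG00000000022. Within animals C was above A in 7 of 12 for the 12S-like row, in 9 of 12 for the 16S-like row and in 6 of 12 for ENSMFAG00000000022. The ratio of the long rows was higher in C in 7 of 12 animals, by 0.09 on the log2 scale (SE 0.05, exact sign-flip p = 0.127, adjusted p = 0.286, 12 animals).

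Within the second run, where letter and run do not compete, libraries of 1 animal differed about as much as the means of animals did. Each mean rests on only an A and a C library, so the SD between means also holds part of the spread within animals. The SD of log2 CPM was 0.23 within animals and 0.26 between animal means for ENSMFAG00000000002, and 0.22 and 0.25 for ENSMFAG00000000004. For ENSMFAG00000000022 it was 0.38 within animals and 0.31 between animal means, over the same 20 libraries and 10 animals. The deposited RPKM values place the long rows on a lower scale, since they were divided by a larger total, with means of 1073 and 961 for ENSMFAG00000000002 and of 889 and 685 for ENSMFAG00000000004 in the first and second run. The order of the runs and of the pair per length is the same on that scale.

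Outside the 8 rows, the genes whose log2 CPM followed them most closely over the 36 libraries were picked by Pearson r among genes of at least 10 CPM. For ENSMFAG00000000002 these were ENSMFAG00000027393 (r = 0.812) and ENSMFAG00000038993 (r = 0.789), at mean levels of 46.1 and 54.5 CPM. For ENSMFAG00000000004 they were ENSMFAG00000039366 (r = 0.807) and ENSMFAG00000003181 (r = 0.805), at 30.3 and 93.4 CPM. All 4 kept a positive r within each run, from 0.643 to 0.881, although none reached that between the long rows themselves. For the sum of the 6 short rows they were ENSMFAG00000046426 (r = 0.991) and ENSMFAG00000035994 (r = 0.979), a 735-base row with 0 CPM in the first run and a mean of 25.0 CPM in the second. That likeness mostly repeats the split by run: within the second run r was 0.939 for ENSMFAG00000046426 but 0.536 for ENSMFAG00000035994. The sum is mostly ENSMFAG00000000022, with 12626 counts over the 36 libraries against 162 to 409 for each other short row. Each short row is part of this sum, so its r with the sum compares a part with the whole. For ENSMFAG00000000014 and ENSMFAG00000000024, with 0 and 3 counts in the first run, that r also holds the split by run. With the sum, r was 0.962 for ENSMFAG00000000022, 0.962 for ENSMFAG00000000014 and 0.863 for ENSMFAG00000000024. It was 0.131 for ENSMFAG00000000005, 0.020 for ENSMFAG00000000006 and 0.358 for ENSMFAG00000000023. The libraries share animals and totals, so these values are descriptions with no test.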

How the data were processed

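Per the file headers, each library's table gives every gene's read count as a whole number, its exonic width, and the RPKM that the authors computed. The counts were deposited as raw counts. GSNAP is the tool named per the submitters' processing notes, while genome build, annotation release, library kit, strand handling and treatment of multiply matching reads were not stated in the labels or headers. Mitochondrial sequences have near-identical copies in the nuclear genome and neighbouring genes on opposite strands, so counts of these rows may include reads of either. The deposited RPKM values were used only as a second scale. They rest on a total of which the counts make up 52.9% to 63.0%.

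CPM was computed from the summed counts of each library. Treatment groups were compared on counts summed per animal with edgeR 4.0.16 (TMM, filterByExpr, quasi-likelihood test, all 12 animals in 1 fit, R 4.3.3). Runs of sample numbers and letters were compared over libraries with limma 3.58.1 voom (animal as random block, within-animal correlation 0.273). Calls needed an adjusted p (Benjamini-Hochberg, over all genes tested) under 0.05. Ratios of the long rows were tested with exact permutation or sign-flip tests over animals. Intervals are 95% exact conditional intervals and floors are 3 counts, and both cover counting error only. Log2 CPM for correlations used a prior count of 0.5. The models were tested on simulated data first. Alternatives were RLE size factors, DESeq2 1.42.0, other low-count filters, library sizes without the 8 rows, fits within a run, an animal block, and leaving out library 5501B or each animal in turn. No library pair agreed within sampling noise (lowest chi-square per degree of freedom 8.42, for 1501A and 1501C).

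The 8 rows, the lists and the tests were chosen with earlier results of these data known. The named genes are the 8 rows and, for the 2 long rows and the sum of the short ones, the 2 most correlated genes of at least 10 CPM. The reference table matched 0 of the 28623 identifiers, so gene lists and markers by symbol could not be applied.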

Additional observations from a re-analysis of the deposited data

Results flagged for a closer look

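ENSMFAG00000000022 stood at 25.03 CPM in animal 4503, against 18.4 CPM in the nearest of the other 3 animals given Para09 at 50 mg/kg, a sample far from the rest of its group by Dixon's criterion. It was the only such value among the 27 groups of 4 animals tested, where chance gives about 1 in 20. The sum of animal 4503 includes the first-run library 4503B, with 0 counts of this row and the lowest library total, 15.07 M. Within the second run the 4 animals at 50 mg/kg ranged from 23.8 to 32.7 CPM (SD 3.80), and the criterion was not applied there.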

How the results depend on the processing

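Between treatment groups, none of the rows tested was called under any alternative, each animal left out included. Some alternatives tested fewer than the 8 rows. The filter on a mean CPM of at least 1 left 3 of them, letter B alone 4 and the library-level voom model 5. The fit of only the 2 groups compared left 7 at 200 mg/kg against anti-gD. Between the runs, limma voom called 1 row without library 5501B and 1 to 2 with each animal left out, against 2, because ENSMFAG00000000023 lost its call. Without the letter term it called 3 rows, ENSMFAG00000000022 higher and the 2 long rows lower, and edgeR with the animal block also called these 3. The log2 ratio of the long rows between the runs was -0.19 with letter A alone (adjusted p = 0.0879) and -0.18 to -0.14 with each animal left out.

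Several small log2 differences changed sign. At 200 mg/kg against anti-gD within the second run, ENSMFAG00000000002 had -0.083 and ENSMFAG00000000004 had -0.085. At 200 against 50 mg/kg, ENSMFAG00000000022 had 0.087 within the second run and 0.065 in the library-level voom model. Between letters C and A it had 0.070 without the run term. Between the runs, ENSMFAG00000000002 had -0.32 without the letter term and -0.41 with the animal block, and ENSMFAG00000000006 had 0.10 without library 5501B. The cause was not tested.

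With each animal left out, the differences ranged as follows. At 200 mg/kg against anti-gD, ENSMFAG00000000022 ranged from -0.0050 to 0.82 and the ratio of the long rows from -0.11 to 0.022. At 200 against 50 mg/kg, ENSMFAG00000000004 ranged from -0.19 to 0.042 and ENSMFAG00000000022 from -0.55 to 0.089. Between letters, ENSMFAG00000000002 ranged from -0.041 to 0.067 and ENSMFAG00000000022 from -0.17 to 0.0067. Between the runs, ENSMFAG00000000002 ranged from -0.15 to 0.39, ENSMFAG00000000004 from -0.44 to 0.27 and ENSMFAG00000000006 from -0.93 to 0.79, with the extremes when animal 1504 or 5501 was left out. With an animal left out, 283 of 322 values held. That means the same direction and side of the threshold, or a similar number where called rows were counted. A change of sign came in 15, a fall short of the threshold in 16 and a moved count in 8. Of the other alternatives, 167 of 182 values held in the same sense and 8 changed sign. Depth limits the 5 lowest short rows, which had at most 36 counts in a library. No paired analysis was possible between treatment groups because the labels give no replicate numbers that link their animals. Runs and letters were compared within animals.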
